A study of Mus musculus with 16 samples.

Results

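The genes described here were 27 genes of GABA and glycine synapses, taken by symbol from a table of 23284 genes measured by RNA sequencing in mouse prefrontal cortex (PFC). They were 14 subunits of the GABA-A receptor, both subunits of the GABA-B receptor, 4 genes of GABA synthesis, vesicle loading and breakdown, 2 chloride cotransporters, the scaffold gephyrin and 4 subunits of the glycine receptor, and they do not include every subunit of these receptors. The 16 libraries came from 4 genotypes with 4 libraries each, from mice 2 to 3 months old of both sexes. APC cKOs carried floxed alleles of Apc (APC fl/fl), β-cat cOEs carried 1 floxed allele that loses exon 3 of Ctnnb1 and yields a β-cat protein resistant to degradation (ctnnb1 fl(ex3)/+), and APC/β-cat cKOs, the double mutants, carried floxed alleles of both genes (APC fl/fl/ctnnb1 fl/fl). All 3 lines carried CamKIIα-Cre, and controls were littermates of these lines without Cre. This Cre acts mainly in forebrain excitatory neurons, so the interneurons that make GABA were outside its main target. The comparisons asked how these genes differed with elevated β-cat (APC cKOs and β-cat cOEs) and with APC lost but β-cat reduced (APC/β-cat cKOs).

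GABA is made by glutamate decarboxylase in inhibitory neurons, loaded into vesicles and released onto receptors of the next cell. GABA-A and glycine receptors are chloride channels built from several subunits and held at the synapse by gephyrin, whereas GABA-B receptors act through G proteins. Whether an open chloride channel inhibits depends on the chloride gradient, which the cotransporters KCC2 (Slc12a5) and NKCC1 (Slc12a2) set in opposite directions. In the cortex most receptors sit on excitatory neurons and most GABA comes from local interneurons.

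Promoter sequences of 3 members are shown because Gabra2 and Glra2 had the smallest p-values between genotypes and Gad1 was the most abundant. The windows run from 250 bases before to 50 bases after the annotated start, 5′ to 3′ on the strand of the gene, from RefSeq on GRCm38.p6. Capitals mark letters of the TCF/LEF motif, by which β-cat acts on genes in the nucleus. The letters searched on both strands were CTTTGNN, in which each N stood for A or T. Gabra2 lies at chr5:71095800-71096099 on the minus strand, Glra2 at chrX:165327344-165327643 on the minus strand and Gad1 at chr2:70561879-70562178 on the plus strand.
Gabra2: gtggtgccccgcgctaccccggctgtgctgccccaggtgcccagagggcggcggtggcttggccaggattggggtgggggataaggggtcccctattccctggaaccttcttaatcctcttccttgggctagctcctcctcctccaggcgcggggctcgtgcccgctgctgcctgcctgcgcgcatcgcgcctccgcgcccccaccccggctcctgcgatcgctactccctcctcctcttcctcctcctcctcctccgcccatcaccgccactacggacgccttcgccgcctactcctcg
Glra2: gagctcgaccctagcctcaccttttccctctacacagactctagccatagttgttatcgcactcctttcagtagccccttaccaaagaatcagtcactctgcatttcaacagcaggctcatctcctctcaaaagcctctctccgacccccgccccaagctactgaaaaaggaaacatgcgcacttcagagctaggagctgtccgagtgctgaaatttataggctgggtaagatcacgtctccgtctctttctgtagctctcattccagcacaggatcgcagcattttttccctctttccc
Gad1: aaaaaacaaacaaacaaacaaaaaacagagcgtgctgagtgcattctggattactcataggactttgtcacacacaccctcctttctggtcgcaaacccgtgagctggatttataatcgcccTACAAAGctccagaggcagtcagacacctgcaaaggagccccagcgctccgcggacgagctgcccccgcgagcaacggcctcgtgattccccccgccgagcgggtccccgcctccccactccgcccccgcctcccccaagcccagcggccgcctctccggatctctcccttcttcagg
The windows of Gabra2 and Glra2 held none of these letters, and that of Gad1 held 1 match, which begins 128 bases before the start. Of 28 promoter windows, which covered 23 of the 27 members, 4 held a match: those of Gad1, 1 of Gabrb2 and both overlapping windows of Gabra3. Of all 32851 promoters in the table, 16.9% held one. The Gabra2 window had 25 CpG dinucleotides and the Glra2 window 9, beside a median of 7 over all promoters. Abat, Slc12a2, Glra1 and Gabrd had no entry.

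Of the 27 members, 21 had a mean of at least 0.5 FPKM over the 16 libraries and were tested, where FPKM is fragments per transcript length and sequencing depth, so that levels can be set beside each other between genes. In controls, Gad1 (glutamate decarboxylase 67) had the highest mean, 206 FPKM ± 46.1 (SD, n = 4). Gabbr1, the subunit of the GABA-B receptor that binds GABA, followed at 152 FPKM ± 3.87, and Glrb, the glycine receptor subunit that binds gephyrin, at 129 FPKM ± 6.95. Slc12a5 (97.6 FPKM ± 4.02), Gabra3 (85.7 FPKM ± 7.11), Gabbr2 (73.2 FPKM ± 3.3), Gabrb2 (70.9 FPKM ± 6.74), Abat (70.7 FPKM ± 3.91) and Gabra2 (65.5 FPKM ± 6.79) came next. The lowest tested members in controls were Glra2 (7.88 FPKM ± 1.26), Gabrg3 (3.89 FPKM ± 0.59) and Glra3 (3.11 FPKM ± 0.497). Of the 20 pairs of neighbours in this order, 13 overlapped in their control libraries. Among the 7 that did not were Gad1 over Gabbr1, Gabbr1 over Glrb, and Gphn over Gabrb1.

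**Figure D1:**
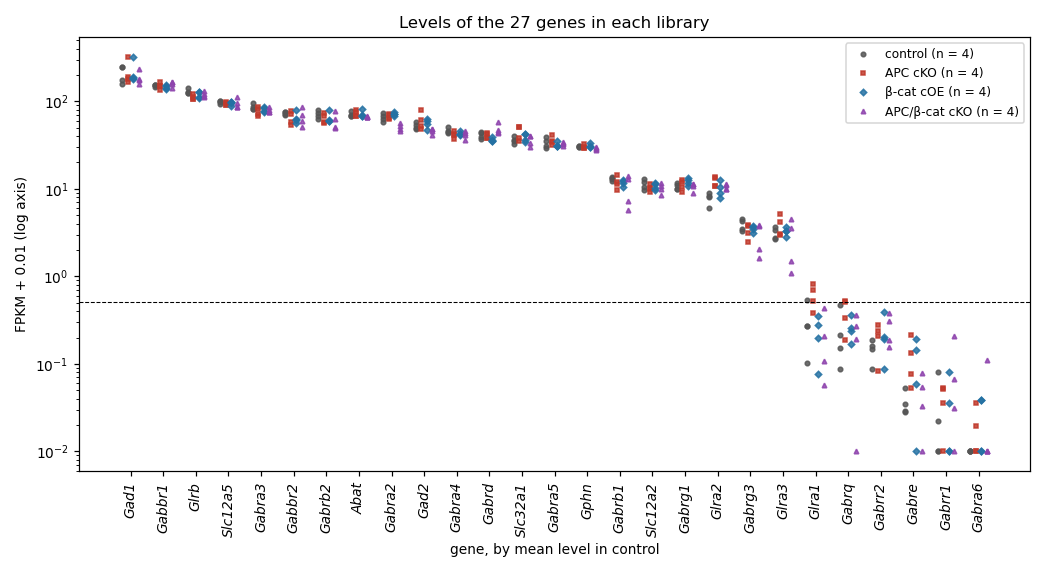
FPKM plus 0.01 on a log axis for each of the 27 genes in the 4 libraries of each genotype, ordered by the mean in control, where each point is 1 library and the dashed line is the filter of 0.5 FPKM. The range runs from Gad1, at 206 FPKM in controls, to 6 genes under the filter.

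The 6 members under the filter were Glra1, Gabrq, Gabrr2, Gabre, Gabrr1 and Gabra6, and none was tested. Glra1, the alpha subunit of adult glycine receptors in brainstem and spinal cord, ranged from 0.0477 to 0.804 FPKM. Gabrq, the theta subunit of the GABA-A receptor, reached at most 0.512 FPKM and Gabre, the epsilon subunit, 0.206 FPKM. Gabrr1 and Gabrr2, rho subunits known from the retina, reached 0.196 and 0.377 FPKM. Gabra6, a marker of cerebellar granule cells, was listed at 0 in 11 of 16 libraries and at most at 0.102 FPKM in the rest.

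Against controls, none of the 21 tested members passed an adjusted p of 0.05 in limma in any line. Over all 13978 genes tested, the share called was 0.0429% for APC cKOs, 0.0143% for β-cat cOEs and 0.207% for the double mutants. With an unadjusted p under 0.05 as the limit, 2 members differed in APC cKOs (1 higher, 1 lower), beside 10.0% of all genes. For β-cat cOEs it was 1 member (higher), beside 5.07% of all genes. For APC/β-cat cKOs there were 5 (2 higher, 3 lower), beside 14.2% of all genes. These counts moved with single libraries: in APC cKOs to 5 without APC cKO replicate 2 and to 4 without APC cKO replicate 4 or control replicate 1. The count for APC/β-cat cKOs was 11 without APC/β-cat cKO replicate 1, 2 without replicate 4, and 3 without replicate 2, control replicate 1 or control replicate 4. The count for β-cat cOEs was 3 without β-cat cOE replicate 3 or control replicate 4 and 0 without β-cat cOE replicate 4. The share of all genes in these smaller fits is not given. These counts therefore show only how far they moved and are not read as a result about the members. Members whose 4 libraries did not overlap with the 4 controls were Glra2 and Glrb in APC cKOs (2), none in β-cat cOEs (0), and Gabra2 and Glra2 in the double mutants (2). The same held for 5.47%, 3.08% and 5.21% of all genes. The median log2 difference over the 21 members was -0.01 for APC cKOs, -0.05 for β-cat cOEs and -0.12 for the double mutants, beside 0 over all genes in each line. Differences were negative for 12 members and positive for 9 in APC cKOs and likewise in β-cat cOEs, and negative for 18 and positive for 3 in APC/β-cat cKOs. Without APC/β-cat cKO replicates 2 and 4, which had the lowest medians over long genes, the last split was 12 to 9 and the median of that line -0.02. These comparisons share the same 4 controls.

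**Figure D2:**
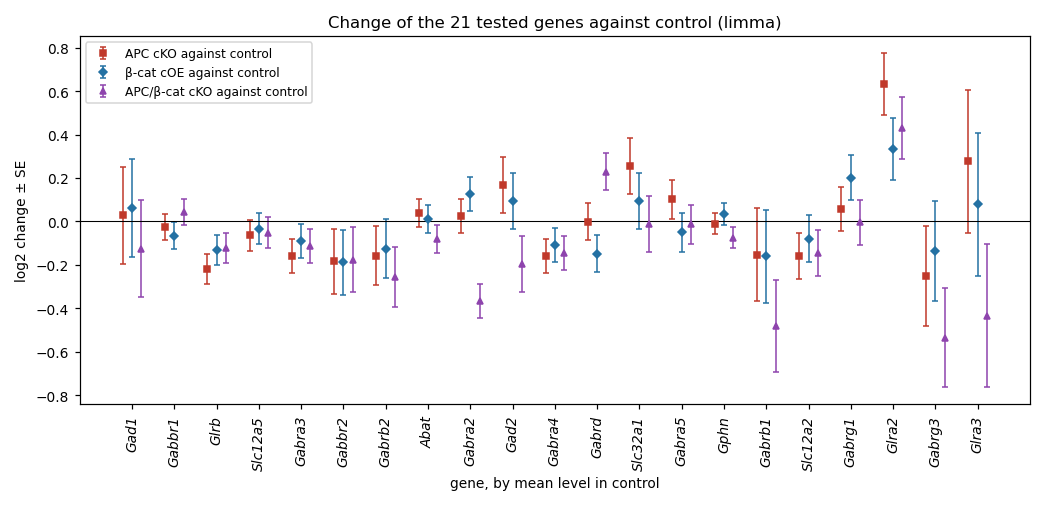
Log2 difference from control with its SE (limma) for the 21 tested genes in APC cKOs, β-cat cOEs and APC/β-cat cKOs, ordered by the mean level in control. Glra2 lies above 0 in all 3 lines, at 0.63, 0.33 and 0.43, and Gabra2 lies below 0 in APC/β-cat cKOs, at -0.36.

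Gabra2 encodes the α2 subunit of the GABA-A receptor, which is enriched at synapses on the axon initial segment and cell body of pyramidal neurons. It lies on chromosome 5 from 70957597 to 71095849 on the minus strand (GENCODE annotation of mm10). Its level in controls was 62.0, 58.2, 68.5 and 73.5 FPKM. In APC/β-cat cKOs it was 48.4, 52.3, 45.8 and 56.9 FPKM, and all 4 values lay under every control. In APC cKOs it was 70.9, 63.9, 62.1 and 69.3 FPKM, and in β-cat cOEs 72.4, 74.7, 67.2 and 71.3 FPKM. Both lines with elevated β-cat overlapped with controls and lay wholly above APC/β-cat cKOs. The share of all genes without overlap between mutant lines was not counted, so this separation is a description only. Against control the log2 difference was -0.36 ± 0.08 (SE) in APC/β-cat cKOs, with an adjusted p of 0.0863. APC cKOs had 0.03 ± 0.08 and β-cat cOEs 0.13 ± 0.08, with adjusted p of 0.938 and 0.95.

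Gabra2 was the only member called between any pair of genotypes. It was higher in β-cat cOEs than in APC/β-cat cKOs by 0.49 ± 0.08 (SE) on the log2 scale, or 1.41-fold (adjusted p = 0.0143 in limma), where 0.229% of all genes were called. Over 27 alternatives this adjusted p ranged from 0.00845 to 0.0664 and passed in 25. It was 0.0664 without β-cat cOE replicate 1. Fits without a control or APC cKO library left the difference itself unchanged and moved only its spread and adjustment. The 27 also include the fit without APC/β-cat cKO replicates 2 and 4, described below. The count of 25 therefore shows how far the adjusted p moved and adds no separate support to the call. In APC cKOs against APC/β-cat cKOs the difference was 0.39 ± 0.08, with an adjusted p of 0.059, and 0 members were called beside 0.215% of all genes. With both lines of elevated β-cat set against controls and APC/β-cat cKOs it was 0.26 ± 0.06, with an adjusted p of 0.175.

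**Figure D3:**
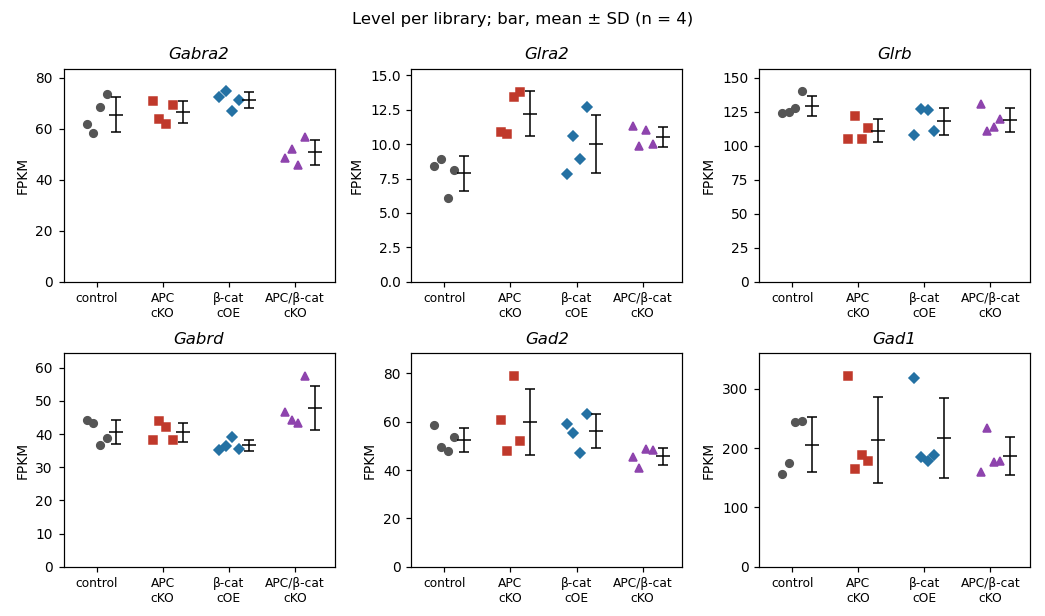
FPKM in each library for 6 genes, by genotype, with the mean and SD (n = 4) beside the points. The 4 APC/β-cat cKO libraries of Gabra2, at 45.8 to 56.9 FPKM, lie under the others, and Gad1 has single high libraries of 321 FPKM in APC cKOs and 318 FPKM in β-cat cOEs.

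The other alpha subunits had no unadjusted p under 0.05 in any line against control. Gabra3 had a log2 difference of -0.16 ± 0.08 (SE) for APC cKOs, -0.09 ± 0.08 for β-cat cOEs and -0.12 ± 0.08 for the double mutants. Gabra4, which forms receptors outside synapses with the delta subunit, had -0.16 ± 0.08, -0.11 ± 0.08 and -0.15 ± 0.08. Gabra5, the subunit of tonic receptors best known from hippocampus, had 0.10 ± 0.09, -0.05 ± 0.09 and -0.01 ± 0.09.

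Gabrd, the delta subunit of receptors outside the synapse, was the member with the next smallest p between β-cat cOEs and APC/β-cat cKOs. Its level was 46.5, 44.2, 43.2 and 57.4 FPKM in APC/β-cat cKOs. It was 35.3, 36.4, 39.1 and 35.6 FPKM in β-cat cOEs, and the groups did not overlap. How many of all genes separate these lines in this way was not counted. Relative to APC/β-cat cKOs, the log2 difference of β-cat cOEs was -0.38 ± 0.09 (SE), with an adjusted p of 0.101. Controls, at 44.2, 43.2, 36.6 and 38.7 FPKM, lay on both sides of the gap between them. APC cKOs, at 38.1, 43.9, 42.0 and 38.2 FPKM, overlapped with controls throughout. The log2 difference of APC/β-cat cKOs from control was 0.23 ± 0.09 (unadjusted p = 0.0173 in limma, adjusted p = 0.283). It was 0.14 without APC/β-cat cKO replicate 4.

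Gabrb1 and Gabrg3, beta and gamma subunits of the GABA-A receptor, had their low values in 2 libraries. Gabrb1 was at 13.9, 7.33, 13.1 and 5.68 FPKM in APC/β-cat cKOs, where controls lay between 12.3 and 13.6 FPKM. Gabrg3 was at 3.76, 1.62, 3.83 and 2.03 FPKM, where controls lay between 3.32 and 4.47 FPKM. In both genes replicates 2 and 4 were under every control, and replicates 1 and 3 were not. The log2 difference from control was -0.48 ± 0.21 (SE) for Gabrb1, with an unadjusted p of 0.0388 in limma and an adjusted p of 0.334. For Gabrg3 it was -0.54 ± 0.23, with an unadjusted p of 0.0335 and an adjusted p of 0.322. Without replicates 2 and 4 these differences were 0.04 ± 0.12 and -0.02 ± 0.17.

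Replicates 2 and 4 of APC/β-cat cKOs also had the lowest medians over long genes in general, with replicate 2 close to APC cKO replicate 3 (-0.114). Over 1980 tested genes that span at least 100 kb, the median log2 deviation from the control mean was -0.145 in replicate 2 and -0.226 in replicate 4. It lay between -0.114 and 0.047 in the other 14 libraries. Over 10667 shorter genes it was 0.033 and 0.042 in replicates 2 and 4. Of the 21 tested members 11 span at least 100 kb, among them Gabrg3 (670.7 kb), Gabrb1 (490.9 kb), Gabbr2 (329.6 kb), Gabrb2 (209.3 kb) and Glra3 (189.6 kb). Gabrb2, the β2 subunit, was at 77.5, 49.7, 63.1 and 50.3 FPKM in APC/β-cat cKOs, and Gabbr2 at 85, 58.8, 69.6 and 50.3 FPKM, with replicates 2 and 4 the lowest in both. Gphn (458.4 kb) deviated by -0.13 and -0.07 in these replicates, and Gabra5 (102.4 kb) by -0.01 and 0.06. The part of gene span in these values was not tested. Gabra2 (138.3 kb) deviated by -0.43 and -0.51 in replicates 1 and 3 and by -0.32 and -0.20 in replicates 2 and 4, so its low level did not rest on those 2 libraries. Those 2 libraries held the highest Gabra2 levels of the line, at 52.3 and 56.9 FPKM beside 48.4 and 45.8 FPKM. Leaving them out, a step added after seeing the data, could therefore only widen its difference and adds no support to the call. Without them the log2 difference of Gabra2 from control was -0.47 ± 0.09 (SE), and β-cat cOEs exceeded APC/β-cat cKOs by 0.60 ± 0.09.

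**Figure D4:**
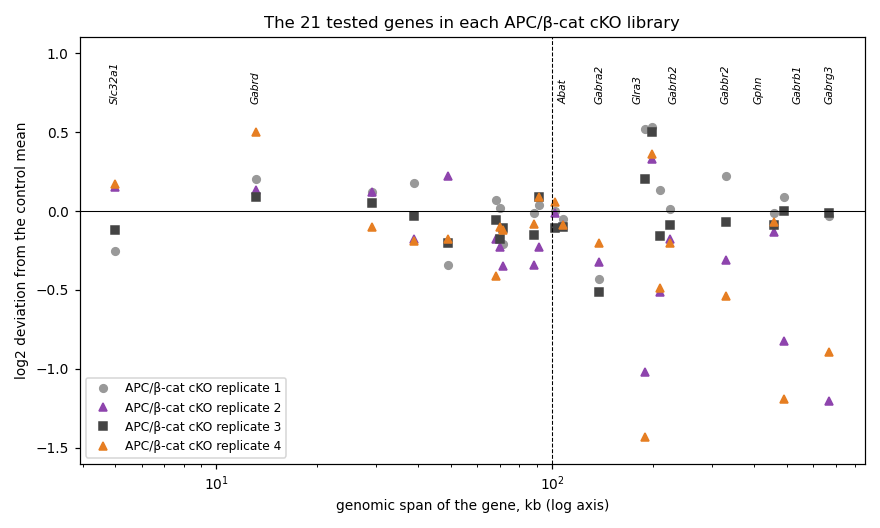
Log2 deviation from the control mean of each of the 21 tested genes (y axis) against the genomic span of the gene in kb on a log axis, for the 4 APC/β-cat cKO libraries, with a dashed line at 100 kb. Replicates 2 and 4 (triangles) lie far below 0 at Glra3, Gabrb1 and Gabrg3, where replicates 1 and 3 lie near or above 0.

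Several members are neighbours on a chromosome. Gabrg1, Gabra2, Gabra4 and Gabrb1 lie within 1398 kb on chromosome 5. Gabra4 on the minus strand and Gabrb1 on the plus strand overlap at their 5′ ends, with RefSeq starts 387 bases apart that each lie inside the other gene, whereas the loci that the table gives them do not overlap. In APC/β-cat cKOs replicates 2 and 4, Gabra4 deviated from the control mean by -0.34 and -0.08 on the log2 scale, and Gabrb1 by -0.82 and -1.19. Gabrg1, a γ1 subunit next to Gabra2, had a log2 difference of 0.00 ± 0.10 (SE) from control in APC/β-cat cKOs, where Gabra2 had -0.36 ± 0.08. Gabrg3 and Gabra5 are neighbours on chromosome 7, Gabra6 and Gabrb2 on chromosome 11, Gabrr2 and Gabrr1 on chromosome 4, and Gabre, Gabra3 and Gabrq on chromosome X. On chromosome X, Gabra3 was at 85.7 FPKM ± 7.11 (SD, n = 4) in controls, whereas Gabre and Gabrq were under the filter.

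Among glycine receptor subunits, Glra2 had the smallest p of all members against control in APC cKOs. Glra2 encodes the α2 subunit, which is known for receptors in the developing forebrain, and lies on chromosome X from 165129017 to 165327393 on the minus strand. Its level was 8.38, 8.94, 6.06 and 8.13 FPKM in controls. It was 10.9, 10.7, 13.4 and 13.8 FPKM in APC cKOs and 11.3, 9.85, 11 and 10 FPKM in APC/β-cat cKOs, and neither overlapped with controls. In β-cat cOEs it was 7.84, 10.6, 8.93 and 12.7 FPKM, with replicates 1 and 3 inside the range of controls. The log2 difference from control was 0.63 ± 0.14 (SE) in APC cKOs, with an unadjusted p of 0.000454 in limma and an adjusted p of 0.209. The double mutants had 0.43 ± 0.14 (adjusted p = 0.275 in limma) and β-cat cOEs 0.33 ± 0.14 (adjusted p = 0.946). Control replicate 3 was the lowest library, and without it the 3 differences were 0.51, 0.31 and 0.22. All 3 lines carried Cre and the controls did not, and the part of Cre itself in these differences was not tested.

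Glrb was at 124, 125, 128 and 140 FPKM in controls and at 105, 122, 105 and 113 FPKM in APC cKOs, and the groups did not overlap. The log2 difference was -0.22 ± 0.07 (SE), with an unadjusted p of 0.00631 in limma and an adjusted p of 0.326. In β-cat cOEs it was -0.13 ± 0.07 and in APC/β-cat cKOs -0.12 ± 0.07, and both overlapped with controls. Glra3, the α3 subunit, was at 4.46, 1.47, 3.55 and 1.08 FPKM in APC/β-cat cKOs and at 3.07, 5.21, 2.97 and 4.15 FPKM in APC cKOs. APC cKOs exceeded APC/β-cat cKOs by 0.71 ± 0.33 on the log2 scale (adjusted p = 0.48 in limma). Without APC/β-cat cKO replicates 2 and 4 the difference was -0.08 ± 0.21.

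Of the genes of the GABA terminal, Gad1 varied widely between libraries. It was at 157, 175, 244 and 246 FPKM in controls and at 321, 165, 189 and 179 FPKM in APC cKOs. The values were 318, 185, 178 and 188 FPKM in β-cat cOEs and 159, 234, 176 and 178 FPKM in the double mutants. Each genotype overlapped with every other. The log2 difference from control was 0.03 ± 0.22 (SE) for APC cKOs, 0.06 ± 0.22 for β-cat cOEs and -0.13 ± 0.22 for the double mutants. The locus that the table gives to Gad1 also covers the antisense gene 1500002O10Rik, itself at most at 0.347 FPKM, and the strand setting of the counting is not stated, so reads of the 2 genes may not be told apart.

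Gad2 encodes glutamate decarboxylase 65, the form held at nerve terminals. Its level was 60.8, 47.9, 78.8 and 52.1 FPKM in APC cKOs, 58.9, 55.5, 47.0 and 63.3 FPKM in β-cat cOEs and 45.2, 41.0, 48.6 and 48.1 FPKM in the double mutants. Controls were at 58.7, 49.6, 47.9 and 53.6 FPKM and overlapped with each line. APC cKOs exceeded APC/β-cat cKOs by 0.37 ± 0.13 (SE) on the log2 scale (adjusted p = 0.332 in limma), and β-cat cOEs exceeded them by 0.29 ± 0.13 (adjusted p = 0.388). Slc32a1, the vesicular transporter of GABA and glycine, was at 50.2, 34.9, 50.9 and 38.2 FPKM in APC cKOs and at 40.4, 35.2, 36.5 and 32.1 FPKM in controls, a log2 difference of 0.26 ± 0.13 (adjusted p = 0.528 in limma). Abat, which breaks GABA down, had log2 differences from control of 0.04 ± 0.06, 0.01 ± 0.06 and -0.08 ± 0.06 in the 3 lines.

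Across libraries, with each level taken as a deviation from its genotype mean, Gad2 and Slc32a1 had Pearson's r = 0.65 (permutation p = 0.037) and Spearman's rho = 0.67 (permutation p = 0.026) over 16 libraries. This was 1 of 6 relations, the adjusted p were 0.11 and 0.16, and r was 0.46 without the 2 libraries farthest from the median. Gad1 had r = 0.06 and rho = 0.24 with Gad2 (permutation p = 0.86 and 0.43), and r = 0.43 and rho = 0.49 with Slc32a1 (permutation p = 0.17 and 0.089). Projection neurons of the striatum, which lies near the PFC, also make GABA. The mean level of striatal markers had r = 0.51 and rho = 0.44 with Gad2 (permutation p = 0.073 and 0.13), r = 0.29 and rho = 0.26 with Slc32a1 (permutation p = 0.34 and 0.4), and r = -0.69 and rho = -0.57 with Gad1 (permutation p = 0.012 and 0.053, adjusted p = 0.07 and 0.16). None of the 6 passed after adjustment.

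Levels of cell type markers were set beside these groups. The 12 striatal markers summed to 145 to 560 FPKM in controls, 173 to 766 FPKM in APC cKOs, 149 to 411 FPKM in β-cat cOEs and 171 to 557 FPKM in the double mutants. Their median log2 difference from control was 0.61, 0.08 and 0.17 in the 3 lines, and none of the 11 tested differed at an unadjusted p under 0.05. Adora2a, a marker of indirect-pathway neurons, was highest in APC cKO replicate 3, at 20.3 FPKM, the library with the highest Gad2. The 18 interneuron markers summed to 1470 to 1760 FPKM in controls, 1320 to 1470 FPKM in APC cKOs, 1310 to 1600 FPKM in β-cat cOEs and 1510 to 1750 FPKM in the double mutants. Their median log2 difference from control was -0.08, 0.01 and -0.07 in the 3 lines, with 8, 9 and 6 of the 18 above 0. At an unadjusted p under 0.05, 4, 2 and 5 were lower and 0 higher, beside 10.0%, 5.07% and 14.2% of all genes, and 0 were called. The highest differences in APC cKOs were those of Calb2 (0.51 ± 0.74) and Dlx2 (0.51 ± 0.37). Lamp5 had the smallest p of these markers in APC cKOs, with a difference of -0.445 ± 0.097 (SE; adjusted p = 0.204 in limma). It had -0.28 ± 0.10 in β-cat cOEs and -0.27 ± 0.10 in the double mutants (adjusted p = 0.946 and 0.281 in limma). Pvalb, the calcium buffer of fast-spiking interneurons, was at 61.2 to 68.2 FPKM in controls and at 25.6, 54.4, 39.4 and 33.2 FPKM in APC cKOs. Its log2 difference there was -0.81 ± 0.19 (SE; adjusted p = 0.209 in limma). In β-cat cOEs Pvalb was at 42.7, 37.1, 61.7 and 41.1 FPKM, a difference of -0.53 ± 0.19 (adjusted p = 0.946 in limma). The double mutants had -0.15 ± 0.19 (adjusted p = 0.728 in limma). Vip, a peptide of another interneuron class, was at 48.9, 42.1, 42.0 and 41.3 FPKM in APC/β-cat cKOs and at 47.4 to 63.4 FPKM in controls, a difference of -0.42 ± 0.10 (adjusted p = 0.113 in limma). APC cKOs had a Vip difference of -0.27 ± 0.10 (adjusted p = 0.365 in limma) and β-cat cOEs one of -0.02 ± 0.10. In whole tissue, fewer cells of a type and less RNA per cell cannot be told apart.

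Oligodendrocyte markers, 8 in number, summed to 761 to 1150 FPKM in controls, 673 to 801 FPKM in APC cKOs, 765 to 998 FPKM in β-cat cOEs and 973 to 1100 FPKM in the double mutants. Their median log2 difference from control was -0.27, 0.01 and 0.2 in the 3 lines, with 0, 5 and 8 above 0. At an unadjusted p under 0.05, 5 were lower in APC cKOs and 3 higher in the double mutants, beside 10.0% and 14.2% of all genes. In APC cKOs against APC/β-cat cKOs the median was -0.48, with 7 lower beside 10.3% of all genes. None was called. Choroid plexus and ependymal markers summed to 4.59 to 6.88 FPKM in controls, 3.78 to 31.3 FPKM in APC cKOs, 3.97 to 19.2 FPKM in β-cat cOEs and 3.53 to 22.2 FPKM in the double mutants. Thalamic and hindbrain markers summed to 20.8 to 98.4 FPKM in controls, 36 to 179 FPKM in APC cKOs, 34.2 to 156 FPKM in β-cat cOEs and 28.1 to 135 FPKM in the double mutants, and Hoxa5 and Hoxb5 were at 0 in all libraries. Of this list of 10 only 3 passed the filter, and it shares Calb2 with the interneuron markers. Its sums are therefore not a measure of thalamic or hindbrain tissue alone. The 10 cortical excitatory markers, which match the labelled tissue, summed to 1280 to 1370 FPKM in controls, 1120 to 1420 FPKM in APC cKOs, 1210 to 1430 FPKM in β-cat cOEs and 1240 to 1400 FPKM in the double mutants. The median log2 difference of endothelial markers from control was -0.19, -0.02 and -0.05 in the 3 lines. It was 0.06, 0.04 and 0.03 for astrocyte markers and 0.02, 0.04 and 0.12 for microglia markers. Their part in the levels of the 27 genes was not tested.

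For the chloride cotransporters, Slc12a5 was at 101, 100, 97.5 and 92.0 FPKM in controls and Slc12a2 at 12, 10.5, 9.79 and 13.0 FPKM. The ratio of Slc12a5 to Slc12a2 was 8.75 ± 1.3 (SD, n = 4) in controls, 9.28 ± 0.536 for APC cKOs, 8.97 ± 0.564 for β-cat cOEs and 9.27 ± 0.619 in the double mutants. No line passed against control (exact two-sided permutation p = 0.486, 0.743 and 0.543). The ratio of Gad1 to Gad2 was 3.98 ± 1.08 in controls, 3.64 ± 1.2 for APC cKOs, 3.87 ± 1.07 for β-cat cOEs and 4.14 ± 1.06 in the double mutants (exact permutation p between 0.657 and 0.914). GABA-B receptors need both subunits, and the ratio of Gabbr1 to Gabbr2 was 2.03, 2.06, 2.13 and 2.12 in controls. APC cKOs had ratios of 2.55, 1.92, 2.82 and 2.12, β-cat cOEs of 2.22, 2.53, 1.88 and 2.51, and the double mutants of 1.94, 2.82, 2.26 and 2.82 (exact permutation p = 0.343, 0.314 and 0.171). The 4 controls lay closer together than the libraries of any line. Over these 9 tests every adjusted p was 0.914, and the smallest p that 4 against 4 libraries allow is 0.0286. Gphn, gephyrin, was at 29.8 to 31 FPKM in controls, and its log2 difference from control was -0.01 ± 0.05 (SE), 0.03 ± 0.05 and -0.07 ± 0.05 in the 3 lines.

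**Figure D5:**
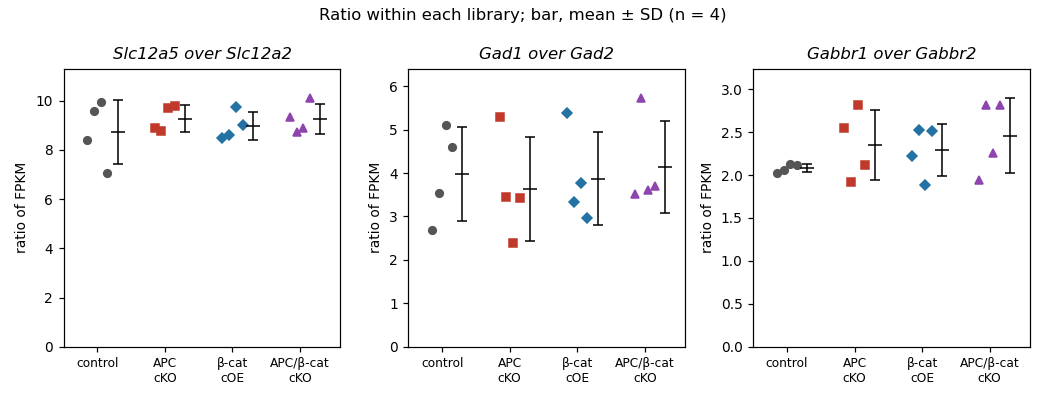
Ratio of FPKM between 2 genes within each library (y axis), by genotype, for Slc12a5 over Slc12a2, Gad1 over Gad2 and Gabbr1 over Gabbr2, with the mean and SD (n = 4) beside the points. The genotypes overlap in each panel, and the control libraries of Gabbr1 over Gabbr2 lie between 2.03 and 2.13.

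Between mutant lines, 4 members differed at an unadjusted p under 0.05 in APC cKOs against APC/β-cat cKOs (Gabra2, Gad2, Gabrd and Glra3), beside 10.3% of all genes. Comparing β-cat cOEs with the double mutants, 4 did (Gabra2, Gabrd, Gad2 and Gphn), beside 11.9%. Between APC cKOs and β-cat cOEs 0 did, beside 7.57%, and 0 members were called beside 0.0429%. In APC cKOs and β-cat cOEs against controls and APC/β-cat cKOs 5 did (Gabra2, Gabrd, Glra2, Gad2 and Glrb), beside 8.84%, and 0 members were called beside 0.0572%. In this last comparison Gabrd had a log2 difference of -0.19 ± 0.06 (SE) and Gad2 one of 0.23 ± 0.09, with adjusted p of 0.382 and 0.475 in limma.

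Of 34 other genes of inhibitory synapses, among them further transporters, adaptors and metabolic enzymes, 29 were tested and 0 were called in any line against control. At an unadjusted p under 0.05, 1 was higher and 2 lower in APC cKOs, 0 higher and 2 lower in β-cat cOEs, and 2 higher and 1 lower in the double mutants. Of all genes, 10.0%, 5.07% and 14.2% passed this limit in the 3 lines. The median log2 difference of the 29 genes was -0.04, -0.02 and -0.04. In APC cKOs the smallest p belonged to Slc6a13, the GABA transporter GAT2, at 9.81, 9.85, 6.85 and 7.75 FPKM beside 6.36, 3.52, 4.59 and 7.09 FPKM in controls. Its log2 difference was 0.69 ± 0.19 (SE; adjusted p = 0.31 in limma), and 1 control lay inside the range of APC cKOs. Plcl2, a binding protein of GABA-A receptor traffic, had -0.26 ± 0.11 in APC cKOs, beside -0.32 ± 0.11 in β-cat cOEs, and Trak1, a transport adaptor of mitochondria and receptors, -0.15 ± 0.07 and -0.14 ± 0.07. Glul, the glutamine synthetase of astrocytes, had -0.21 ± 0.10 in β-cat cOEs. The smallest p in APC/β-cat cKOs belonged to Kctd16, an auxiliary subunit of GABA-B receptors, at 8.65, 2.77, 6.61 and 3.34 FPKM, with replicates 2 and 4 again the lowest, and a log2 difference of -0.76 ± 0.28 (adjusted p = 0.281 in limma). Gcsh and Gldc, subunits of the glycine cleavage system, had 0.27 ± 0.10 and 0.33 ± 0.12.

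As a check of the labels, Apc was at 40.8 to 50.1 FPKM in controls, 7.85 to 17.1 FPKM in APC cKOs and 6.8 to 12.2 FPKM in APC/β-cat cKOs. Its log2 difference from control was -1.96 and -2.14 in these lines, a fall in both (adjusted p = 0.00024 and 3.35e-05 in limma). Ctnnb1 was at 155 to 166 FPKM in controls and 151 to 157 FPKM in APC/β-cat cKOs, where a loss of exons need not lower the count of the whole gene. In β-cat cOEs Apc was at 38.8 to 49.5 FPKM and Ctnnb1 at 155 to 166 FPKM, overlapping with controls in both genes. These counts therefore check the loss of Apc only, and not the changes made to Ctnnb1 in β-cat cOEs and APC/β-cat cKOs. Fragment counts are not in the table and sequencing depth is unknown. Genes at 0 numbered 5726 to 6649 per library. By Xist and Y-linked genes 2 libraries, control replicate 1 and APC cKO replicate 1, were female and 14 male.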

How the data were processed

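RNA from the prefrontal cortex of 16 mice was sequenced as paired ends from stranded poly(A) libraries. The authors mapped reads to mm10 with TopHat2 2.0.10 and made normalized values with Cufflinks2 and Cuffdiff 2.1.1. Values as deposited are log2 numbers, read here as log2(FPKM + 1), and were turned back into FPKM. Neither base nor offset is stated: with log base 2 the FPKM times transcript length summed to between 302366 and 1893767 per library, depending on the transcripts used, whereas a natural log gave at least 2837187, more than FPKM scaling allows.

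The 27 members and all gene lists were chosen with earlier results of these data known. Values were compared in limma 3.58.1 (R 4.3.3, eBayes with a trend) on log2(FPKM + 0.1), over 13978 genes (mean over all libraries at or above 0.5 FPKM), with 4 genotypes sharing 1 estimate of the spread (12 residual degrees of freedom) and a Benjamini-Hochberg adjusted p under 0.05 as the call. The design assumed FPKM, and the test was kept. Differences on this scale understate those of low genes. Unadjusted p under 0.05 was counted as a description. Full statistics were given for members past that limit, or not overlapping, against control, and for members called in any comparison. Of the other inhibitory synapse genes, the 3 with the smallest p in each line were named. Ratios used exact permutation over libraries, and correlations 100000 permutations within genotypes. Long genes, neighbours and members such as Glra3 and Slc32a1 were described after their values were seen. The labels name no separate litters or batches, so p-values measure the spread between these libraries. Promoters came from RefSeq and gene spans from GENCODE. Python 3.11.15 with pandas 2.3.3 and matplotlib 3.10.9 made the summaries and figures. The limma test was tested on simulated data. Alternatives were another pseudocount or filter, 2 other scalings, no trend, sex or title number in the model, only the groups compared, a stricter threshold, and each library left out. Leaving out APC/β-cat cKO replicates 2 and 4 together, and a block by the sets of running numbers in the column names, were added after seeing the data. Some genes of these receptors are not reported here.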

Additional observations from a re-analysis of the deposited data

Results flagged for a closer look

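Between lines, Gabra2 differed by 0.493 on the log2 scale between β-cat cOEs and the double mutants (APC/β-cat cKOs) (adjusted p = 0.0143 in limma), so its difference from the shared controls was not alike in the 2 lines.

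Within genotypes, 84 groups of 4 libraries (21 members in 4 genotypes) were searched for a library standing off from its 3 companions, measured by the gap to the nearest library over the whole range (Dixon's ratio). Of these 7 passed the 95% critical value, where chance gives about 4.2. Gad1 passed in APC cKO replicate 1, at 321 FPKM beside 165 to 189 FPKM (ratio 0.848), and in β-cat cOE replicate 1, at 318 FPKM beside 178 to 188 FPKM (ratio 0.928). Abat passed in β-cat cOE replicate 1, at 80.7 FPKM beside 67.9 to 68.8 FPKM (ratio 0.928), and in control replicate 1, at 76.5 FPKM beside 68.2 to 69.2 FPKM (ratio 0.88). Gabra5 passed in β-cat cOE replicate 1, at 34.9 FPKM beside 30.9 to 31.1 FPKM (ratio 0.949). Gabrb2 passed in β-cat cOE replicate 3, at 80.2 FPKM beside 60.1 to 60.6 FPKM (ratio 0.974). Gabrg1 passed in APC/β-cat cKO replicate 2, at 9 FPKM beside 10.9 to 11.2 FPKM (ratio 0.832). Of the 7, 3 lay in β-cat cOE replicate 1.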

How the results depend on the processing

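No alternative made a member called against control. The call of Gabra2 between β-cat cOEs and APC/β-cat cKOs was lost (0 members) at an adjusted p under 0.01, with title number as a replicate block (0.49, adjusted p = 0.0659 in limma) and without β-cat cOE replicate 1, so leaving out 1 library gave 0 to 1. Between APC cKOs and APC/β-cat cKOs 1 member was called under quantile normalization and 0 to 1 with a library left out (1 without control replicate 4). Same-numbered deviations from the group means correlated with r between -0.218 and 0.056, so the title numbers were not taken to pair the mice, and the title number of APC cKO replicate 4 is shared with no other library. The column names also carry running numbers in 4 sets of 4 libraries, 1 of each genotype, in which APC cKO replicate 4 stands with the third libraries of the other genotypes (r = -0.013 with the control). What these sets are is not stated. With the sets as a block, added after seeing the data, Gabra2 was called between β-cat cOEs and APC/β-cat cKOs (0.49, adjusted p = 0.044 in limma), and no other member was called in any comparison.

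Members at an unadjusted p under 0.05 in APC cKOs against control were 4 without a filter and 4 with sex as a covariate, and 2 to 5 with a library left out. In β-cat cOEs they were 0 with sex, 2 without APC/β-cat cKO replicates 2 and 4, and 0 to 3 with a library left out. With either block they were 2, beside 592 of 13978 genes for title number and 658 for the sets. In APC/β-cat cKOs they were 2 without replicates 2 and 4, and 2 to 11 with 1 library left out. Against APC/β-cat cKOs they were 2 in APC cKOs without replicates 2 and 4, and 2 to 6 in β-cat cOEs with a library left out. Between APC cKOs and β-cat cOEs they were 1 without a filter, 1 with only these groups and 0 to 1 with a library left out. In both elevated lines against the rest they were 3 with title number as the block, beside 968 of 13978 genes. Shares of all genes under the other settings are not given, so those counts describe only the dependence on the setting.

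Of differences near 0 in APC cKOs against control, Gabra2 (0.025) turned to -0.013 with title number as the block and ranged from -0.03 to 0.082 with a library left out. Gabrd (-0.002) turned to 0.022 with quantile normalization, 0.005 with median-of-ratios scaling and 0.004 with that block, and ranged from -0.052 to 0.039. Gabrb1 in APC/β-cat cKOs turned to 0.042 without replicates 2 and 4. With a library left out, the log2 ratio of Slc12a5 to Slc12a2 against control ranged, for the lines in the order APC cKOs, β-cat cOEs and the double mutants, from -0.003 to 0.16, -0.053 to 0.111 and -0.005 to 0.159. That of Gad1 to Gad2 ranged from -0.34 to 0.04, -0.209 to 0.1 and -0.104 to 0.205. Without the 2 libraries farthest from the median, r was -0.056 for Gad1 with Gad2, 0.224 for Gad1 with Slc32a1, 0.215 for striatal markers with Gad2 and 0.023 with Slc32a1. The fit with only the groups compared was not run for the pooled contrast. In other cases the cause was not tested.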
